A study of Homo sapiens with 12 samples.

Results

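The transcriptome of ZNF263 knockout H1 cells in which ZIC2 was overexpressed was compared with that of knockout cells without it, across all expressed genes. The comparison rests on the 6 libraries whose labels carry the homozygous ZNF263 knockout, 6 of the 12 in the study. In 3 of them ZIC2 was overexpressed as well, and the other 3, whose library names hold the tag vec, served as controls. H1, also called WA01, is a widely used human embryonic stem cell line. All 6 libraries thus share the knockout, so the contrast between them does not measure the loss of ZNF263. No wild type cells with ZIC2 overexpressed were among the samples, so whether the differences depend on the knockout was not tested. The 3 wild type H1 libraries, whose names also hold vec, are given beside the 6 as a reference level. Differences from wild type include the knockout. The other 3 libraries, wild type cells that overexpress ZNF263, enter through the expression filter, the scaling and the estimate of the spread, but not through the contrast. The promoter and vector that drove ZIC2, the day of harvest, the edit made in ZNF263 and whether the knockout cells were 1 clone are not given in the sources used here. Separate cultures within a group are not stated either, so p-values measure the spread between these libraries, which may be technical. The stated purpose of the study was the part ZNF263 plays in the control of pluripotency, with ZIC2 examined as its cofactor.

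ZIC2 belongs to the ZIC family of zinc finger transcription factors, relatives of the GLI factors that carry Hedgehog signals. It is expressed in primed pluripotent cells and later in the dorsal neural tube and the neural crest. In retinal ganglion cells that turn back at the optic chiasm, it controls axon guidance receptors of the EPH family. Heterozygous loss causes holoprosencephaly, a failure of the forebrain to divide. The groups of genes described here were chosen around these roles, together with the signalling pathways that hold human embryonic stem cells primed. They were chosen with earlier results of these data known. The share of a group that was called is therefore a description and not a test.

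The overexpressed gene was examined first. ZIC2 (chromosome 13, 100634026 to 100639019) (hg19 throughout) stood at 157, 159 and 152 CPM (read counts relative to library size, scaled by TMM factors) in the 3 knockout libraries and at 2226, 2018 and 1878 CPM in those with ZIC2. The log2 fold change was 3.71 (SE 0.05, adjusted p = 2.56e-24) in the quasi-likelihood test of edgeR, which is the source of every adjusted p in the text. The groups were far apart, and each library with ZIC2 also exceeded the wild type libraries, which held 212, 209 and 205 CPM. Gene counts do not separate transcripts of the introduced copy from those of the cell's own ZIC2. ZNF263 itself, at chromosome 16, 3333487 to 3341459, gave 30.9, 31.1 and 31.2 CPM in knockout and 35.9, 30.1 and 30.8 CPM with ZIC2 (log2 fold change 0.06, SE 0.07, adjusted p = 0.717), so the comparison was made at a similar level of the remaining knockout transcript. ZIC5 (chromosome 13, 100615275 to 100624178), which encodes another family member beside ZIC2 on the chromosome, fell from 76.5, 80.4 and 81.2 to 60.99, 64.1 and 67.6 CPM (log2 fold change -0.30, SE 0.05, adjusted p = 7.6e-05). The libraries of both groups were separate for ZIC5. ZIC1, at 0.276 to 1.21 CPM in the 6 libraries, was not called (log2 fold change -0.53, SE 0.37, adjusted p = 0.487).

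Across the 15437 genes that passed the expression filter, 771 were called higher with ZIC2 (4.99% of those tested) and 517 lower (3.35%) at an adjusted p under 0.05. The 2 directions differed in size. The median log2 fold change of called genes was 0.50 for those that rose and -0.27 for those that fell, and over all tested genes it was -0.0011. More than 2-fold rises were called in 166 genes (1.08%) and falls of that size in 8 (0.0518%). The 3 ZIC2 libraries lay wholly above or below the 3 knockout libraries in 3366 genes (21.8%). The shares of 4.99%, 3.35% and 21.8% are the background for each gene list and each mention of separate groups below. Leaving out replicate 1 of the ZIC2 libraries lowered the count of falls to 306. A fit of only the 6 knockout libraries called 593 higher and 289 lower. After an offset for GC content and gene length the counts were 884 higher and 1169 lower, so the share of rises among called genes went from 59.9% to 43.1%. The mean level of each gene and its change are shown in the plot of all tested genes.

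**Figure D1:**
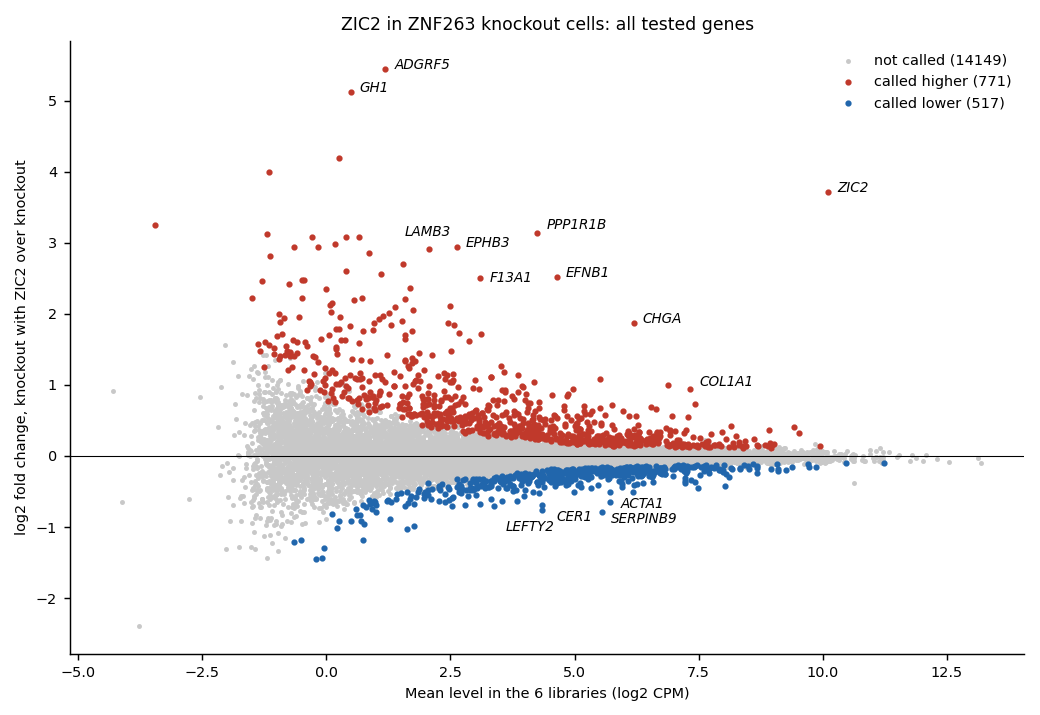
Each point is 1 tested gene, with its mean level in the 6 libraries (log2 CPM) on the horizontal axis and its log2 fold change, knockout with ZIC2 over knockout, on the vertical axis. Red points are the 771 genes called higher and blue points the 517 called lower; the rises reach much larger fold changes than the falls, and ZIC2 stands alone at the upper right.

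Depth was 17183577 to 21662763 counts in 5 of the 6 libraries and 43464609 in knockout replicate 1. With that library thinned to the mean depth of the other knockout libraries, an alternative chosen after seeing the data, 737 genes were higher and 488 lower. Mitochondrial genes took 1.11 to 1.16% of counts in knockout and 0.963 to 1.13% with ZIC2. The 6 markers of pluripotent stem cells were expressed in every library, at a summed 6168 to 6201 CPM in knockout and 5785 to 5858 CPM with ZIC2. Most of each sum came from LIN28A and DNMT3B, of which DNMT3B was not called. Of the 6 markers 2 (NANOG and LIN28A) were called lower. In bulk RNA a change in the share of a kind of cell and a change in RNA per cell cannot be told apart.

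Among called genes with at least 5 CPM in the higher group and no overlap between the 2 groups of libraries, the 15 largest rises were led by ZIC2 itself. PPP1R1B (chromosome 17, 37783177 to 37792878), which encodes a phosphatase inhibitor regulated by dopamine and cAMP signals, rose from 3.49, 4.32 and 4.103 to 35.9, 36.2 and 30.4 CPM (log2 fold change 3.14, SE 0.10, adjusted p = 3.07e-16), an 8.83-fold difference. All 3 libraries with ZIC2 also lay above wild type, at 4.97, 5.81 and 6.48 CPM. LAMB3 (chromosome 1, 209788218 to 209825820), a chain of the laminin of epithelial basement membranes, rose from 1.28, 0.790 and 0.653 to 7.09, 7.34 and 8.199 CPM (log2 fold change 2.91, SE 0.21, adjusted p = 1.38e-09). F13A1 (chromosome 6, 6144311 to 6320924), the catalytic subunit of coagulation factor XIII, rose from 2.703, 2.79 and 2.14 to 15.9, 14.7 and 13.1 CPM (log2 fold change 2.50, SE 0.13, adjusted p = 2.04e-12). The wild type libraries held 2.77, 2.56 and 3.096 CPM of F13A1, near the knockout level, so the level with ZIC2 was above both. SLC16A3, a lactate and proton transporter, rose from 1.03, 1.16 and 0.979 to 5.57, 5.52 and 5.15 CPM (log2 fold change 2.37, SE 0.18, adjusted p = 3.91e-09). FIBCD1, a membrane receptor for acetylated structures such as chitin, changed by 2.11 (SE 0.15, adjusted p = 1.13e-09) on the log2 scale, and the atypical cadherin FAT2 by 2.05 (SE 0.21, adjusted p = 3.21e-07). For the other members the log2 fold changes were 2.70 for IER5L, 1.85 for MYO7A, an unconventional myosin of sensory hair cells, 1.75 for the gel-forming mucin gene MUC19 and 1.73 for LRRC55, an auxiliary subunit of BK potassium channels. MUC19 holds long repeats that can lower unique alignment.

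CHGA (chromosome 14, 93389445 to 93401641), which encodes the secretory granule protein chromogranin A, went from 27.4, 34.2 and 33.7 CPM in knockout to 121, 113 and 110.2 CPM with ZIC2 (log2 fold change 1.87, SE 0.07, adjusted p = 1.55e-15). Wild type libraries held 81.4, 85.9 and 76.8 CPM, between the other 2 groups. Of the 15 rises ZIC2, PPP1R1B, EFNB1, MYO7A and LRRC55 also had wild type between the groups without overlap. LRRC55 had 3.29, 2.48 and 2.94 CPM in knockout, 6.99, 6.77 and 7.19 CPM in wild type and 10.3, 9.99 and 9.37 CPM with ZIC2.

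4 genes under the 5 CPM limit had larger fitted changes than ZIC2 itself. WNT3A is described with its pathway, and the other 3 were chosen after their values were seen. ADGRF5 (chromosome 6, 46820242 to 46922675), an adhesion G protein-coupled receptor known from lung and vascular endothelium, had 8 counts pooled over the knockout libraries and 247 over those with ZIC2, a ratio of 46.8 after scaling (exact 95% interval 23.4 to 109.7). Per library that was 0.0466, 0.211 and 0.0933 CPM against 5.72, 3.86 and 3.75 CPM. GH1 (chromosome 17, 61994553 to 61996212), the pituitary growth hormone gene, had 6 counts against 149, a ratio of 37.7 (16.9 to 104.3), and its counts are uncertain because its neighbours are near-identical copies, and whether reads of the introduced construct were counted here was not tested. PTPN7, a tyrosine phosphatase of blood cells, had 10 counts against 126, a ratio of 19.1 (10.1 to 40.8). These intervals cover counting error only. The 3 wild type libraries were also low, at 0.404, 0.160 and 0.191 CPM for ADGRF5 and at most 0.0476 CPM for GH1. Neither gene could pass the expression filter on knockout or wild type libraries, so both could appear only as rises.

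**Figure D2:**
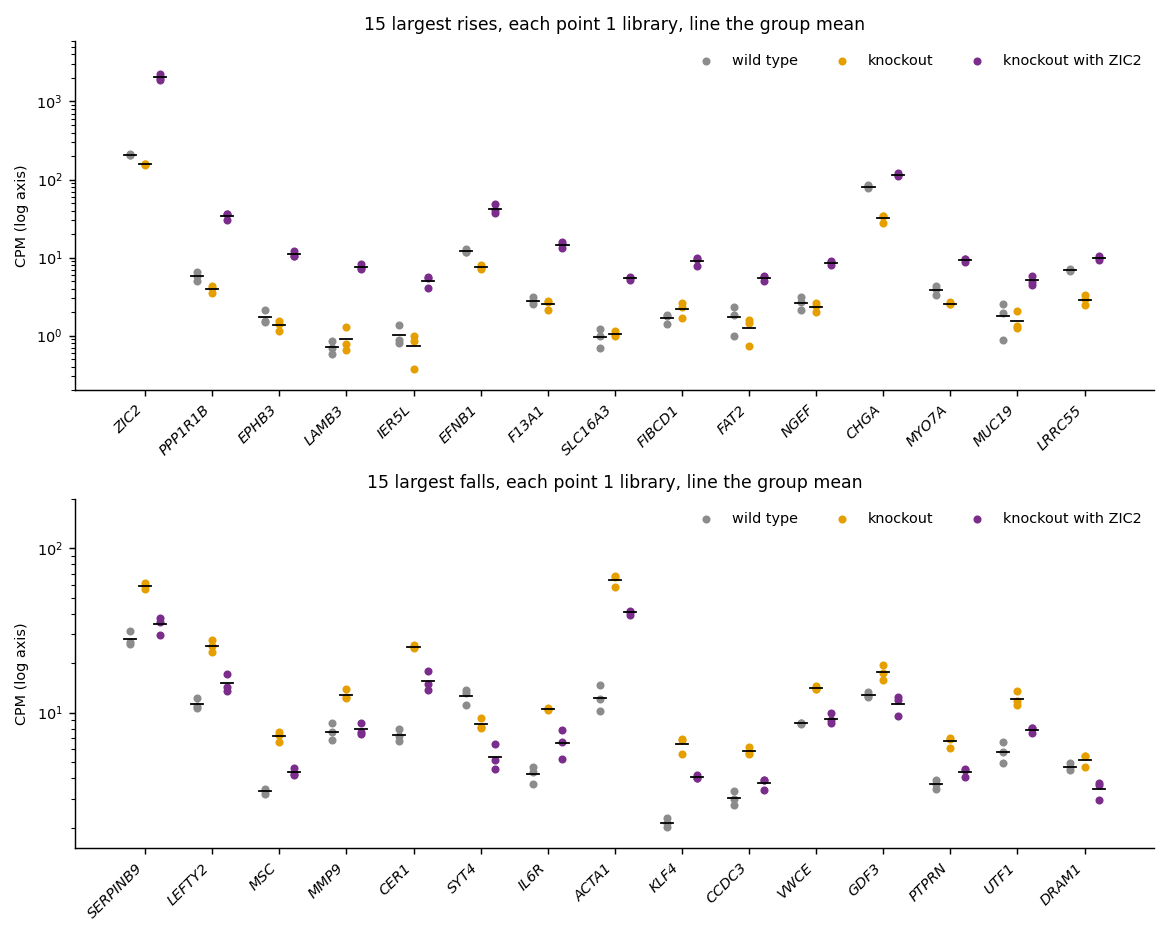
CPM on a log axis for the 15 largest rises (top) and the 15 largest falls (bottom) among called genes. All had at least 5 CPM in the higher group and, by the same rule, no overlap of orange and purple points. Each point is 1 library, each line the mean of 3, grey for wild type, orange for knockout and purple for knockout with ZIC2. The rises span several-fold steps above both other groups for most genes, while the steps between orange and purple are smaller for the falls.

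The 15 largest falls were smaller, from -0.78 to -0.60 on the log2 scale, and held NODAL pathway genes, genes of the pluripotent state and a skeletal muscle actin. SERPINB9 (chromosome 6, 2887500 to 2903546), an inhibitor of granzyme B, fell from 61.1, 59.1 and 56.8 to 29.8, 37.8 and 35.7 CPM (log2 fold change -0.78, SE 0.07, adjusted p = 3.3e-08). Wild type stood at 31.2, 26.98 and 26.2 CPM, a range that the ZIC2 libraries overlapped and the knockout libraries did not. MMP9, a gelatinase, fell from 12.4, 13.9 and 12.3 to 7.45, 7.62 and 8.67 CPM (log2 fold change -0.70, SE 0.10, adjusted p = 2.12e-05), with wild type at 8.61, 6.77 and 7.62 CPM. IL6R, the receptor chain that binds interleukin 6, fell from 10.4, 10.5 and 10.6 to 6.64, 5.24 and 7.79 CPM (log2 fold change -0.68, SE 0.12, adjusted p = 0.000301). MSC, which encodes the repressor musculin and shares 367 exonic bases with an antisense gene, fell by 0.70 on the log2 scale, CCDC3 by 0.64, VWCE by 0.63, PTPRN, a secretory granule phosphatase relative, by 0.62 and DRAM1, a regulator of autophagy, by 0.60. SYT4 (chromosome 18, 40847857 to 40857615), a synaptotagmin of neuroendocrine vesicles, went the other way from wild type. It stood at 11.1, 13.8 and 13.1 CPM in wild type, 9.27, 8.17 and 8.02 CPM in knockout and 5.12, 4.53 and 6.44 CPM with ZIC2 (log2 fold change -0.69, SE 0.13, adjusted p = 0.000755 against knockout). DRAM1 was also lowest with ZIC2, at 3.65, 2.93 and 3.75 CPM beside 4.68, 4.91 and 4.48 CPM in wild type.

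EPH receptors and ephrins signal between neighbouring cells in both directions and set boundaries and axon paths. Of the 20 tested members, 4 rose (20%, against 4.99% of all tested genes) and none fell, and the list's median was -0.02. Without knockout replicate 1 there were 5 rises and 1 fall. The 4 were all of the B class. EPHB3 (chromosome 3, 184279587 to 184300196), a receptor for B-class ephrins, rose from 1.56, 1.16 and 1.399 to 12.01, 10.4 and 10.4 CPM (log2 fold change 2.95, SE 0.15, adjusted p = 3.69e-12), 7.703-fold. EFNB1 (chromosome X, 68048840 to 68062006), a transmembrane ephrin ligand, rose from 7.04, 8.11 and 7.41 to 48.99, 40.9 and 37.4 CPM (log2 fold change 2.52, SE 0.09, adjusted p = 2.03e-15). Both genes are among the 15 largest rises, for which separate libraries were a condition. The wild type libraries held 1.56, 1.49 and 2.14 CPM of EPHB3 and 11.7, 11.8 and 12.96 CPM of EFNB1. The receptor gene EPHB1, known as a target of ZIC2 in retinal ganglion cells, rose from 9.72, 9.17 and 9.61 to 16.6, 17.7 and 17.3 CPM (log2 fold change 0.85, SE 0.08, adjusted p = 5.35e-08). The ligand gene EFNB2 rose less, from 34.5, 35.4 and 36.7 to 48.5, 44.4 and 42.8 CPM (log2 fold change 0.35, SE 0.06, adjusted p = 0.000301). EPHB2 just missed the threshold with a change of 0.27 (SE 0.08, adjusted p = 0.0506) on the log2 scale, and EPHB4 (log2 fold change -0.02, SE 0.04, adjusted p = 0.865) and EFNB3 (log2 fold change -0.02, SE 0.07, adjusted p = 0.898) had differences near 0. Among the A class, EPHA1 had -0.03 and EPHA4 0.17, and neither was called. NGEF, a guanine nucleotide exchange factor that binds EPHA receptors, was among the 15 largest rises, from 2.42, 2.58 and 2.01 to 8.87, 8.94 and 8.08 CPM (log2 fold change 1.88, SE 0.13, adjusted p = 6.51e-10).

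Other guidance cues and receptors moved in part. Of 24 tested, 6 rose (25%, against 4.99% of all tested genes) and 1 fell (4.17%, against 3.35%), with a median of 0.08. UNC5C (chromosome 4, 96083656 to 96470361), a netrin receptor that mediates repulsion, rose from 3.26, 3.74 and 4.48 to 7.19, 7.45 and 8.38 CPM (log2 fold change 1.04, SE 0.12, adjusted p = 2.55e-06). Its relative UNC5B rose from 102, 97.8 and 100 to 159, 144 and 141 CPM (log2 fold change 0.56, SE 0.04, adjusted p = 3.91e-09). NRP2, a semaphorin and VEGF co-receptor, rose from 50, 46.1 and 52.2 to 80.3, 74.6 and 74.7 CPM (log2 fold change 0.63, SE 0.06, adjusted p = 5.5e-08), and SLIT2, a secreted repellent, from 23.7, 20.6 and 20.1 to 36.3, 32.3 and 33.6 CPM (log2 fold change 0.65, SE 0.07, adjusted p = 5.11e-07). Each of these 4 genes had all 3 ZIC2 libraries above all knockout libraries. The semaphorin receptor PLXNA2 also rose, by 0.81, and SEMA6D by 0.51, the latter not called without knockout replicate 1 (adjusted p = 0.0503). SEMA3A, a secreted repellent, fell from 79.1, 72.4 and 74.4 to 54.7, 58.1 and 65.4 CPM (log2 fold change -0.35, SE 0.06, adjusted p = 0.000205), and without knockout replicate 2, or with the GC and length offset, the list held 4 falls. The SLIT receptor ROBO1 (log2 fold change 0.11, SE 0.08, adjusted p = 0.472) and the semaphorin co-receptor NRP1 (log2 fold change -0.30, SE 0.13, adjusted p = 0.159) were not called.

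The bases before the start of the 2 most changed ephrin system genes, of UNC5C and of WNT3A are shown because they were searched for the sequence that ZIC proteins are known to bind. They are the 250 bases upstream of the RefSeq start on GRCh38.p14, read 5′ to 3′ on the strand of the gene, with CCTGCTG or its reverse complement CAGCAGG in capitals.
EPHB3, chr3:184561535-184561784, plus strand: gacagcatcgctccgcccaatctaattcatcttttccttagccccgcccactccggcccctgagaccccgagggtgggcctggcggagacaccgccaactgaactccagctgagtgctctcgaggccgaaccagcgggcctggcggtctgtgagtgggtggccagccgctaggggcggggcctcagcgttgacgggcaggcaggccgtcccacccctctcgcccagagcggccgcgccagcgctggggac
EFNB1, chrX:68828771-68829020, plus strand: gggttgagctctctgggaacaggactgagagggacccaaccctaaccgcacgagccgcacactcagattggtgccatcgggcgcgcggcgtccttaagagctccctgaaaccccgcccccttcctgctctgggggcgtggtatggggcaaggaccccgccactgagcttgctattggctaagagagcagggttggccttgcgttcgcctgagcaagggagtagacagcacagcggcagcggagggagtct
UNC5C, chr4:95548974-95549223, minus strand: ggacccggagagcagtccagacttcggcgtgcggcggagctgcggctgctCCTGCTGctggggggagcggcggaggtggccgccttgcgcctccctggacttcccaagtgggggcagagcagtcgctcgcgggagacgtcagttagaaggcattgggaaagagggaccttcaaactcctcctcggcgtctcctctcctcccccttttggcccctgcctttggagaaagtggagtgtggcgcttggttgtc
WNT3A, chr1:228006748-228006997, plus strand: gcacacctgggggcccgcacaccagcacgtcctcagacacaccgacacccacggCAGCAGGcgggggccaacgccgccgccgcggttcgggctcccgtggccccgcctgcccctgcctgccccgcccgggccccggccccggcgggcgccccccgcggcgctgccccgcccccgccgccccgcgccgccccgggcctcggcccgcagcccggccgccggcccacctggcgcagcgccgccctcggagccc
The EPHB3 and EFNB1 windows held neither form, and those of UNC5C and WNT3A held 1 each. Of all tested genes with a promoter entry, 905 of 12015 (7.53%) held at least 1 copy on either strand. Among genes called higher it was 53 of 590 (8.98%), among those over 2-fold higher 15 of 117 (12.8%) and among genes called lower 25 of 402 (6.22%). None of the 13 promoters found for the 15 largest rises and none of the 12 for the 15 largest falls held it. The longer form TGGGTGGTC, of the kind bound by GLI and ZIC proteins, was in 22 of the 12015 windows (0.183%) and in none of the called genes. A match is only a match of letters, and binding was not measured in these samples.

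WNT proteins are secreted ligands that stabilise beta-catenin through Frizzled receptors or act on cell shape through other routes. Of the 22 tested genes of this list, 7 rose (31.8%, against 4.99% of all tested genes) and 2 fell (9.09%, against 3.35%), with a median of 0.17. WNT5A (chromosome 3, 55499743 to 55521670), a ligand known mainly for effects that bypass beta-catenin, rose from 3.704, 3.48 and 3.59 to 12.1, 10.98 and 10.2 CPM (log2 fold change 1.62, SE 0.11, adjusted p = 2.23e-10). WNT3A (chromosome 1, 228194723 to 228248972), a ligand of the beta-catenin route and of the dorsal neural tube, had 4 counts pooled over the knockout libraries and 47 over those with ZIC2, a ratio of 17.8 (exact 95% interval 6.52 to 68.1; adjusted p = 1.09e-05). It was nearly undetected without ZIC2, and its level with ZIC2, 0.861, 0.828 and 0.878 CPM, was still low. Knockout and wild type libraries were too low to carry WNT3A through the expression filter, so it could appear only as a rise. Of the nuclear effectors, LEF1 had 45 pooled counts against 102, a ratio of 3.44 (2.40 to 4.999), and shares 279 exonic bases with an antisense gene. The more abundant effector genes TCF7 (log2 fold change 0.10, SE 0.12, adjusted p = 0.723) and TCF7L1 (log2 fold change -0.09, SE 0.03, adjusted p = 0.108) were not called. Among inhibitors, APCDD1 rose from 3.19, 3.74 and 2.05 to 8.81, 9.33 and 7.09 CPM (log2 fold change 1.48, SE 0.17, adjusted p = 1.28e-06) and SFRP1, a secreted decoy receptor, from 606, 558 and 609 to 804, 756 and 794 CPM (log2 fold change 0.41, SE 0.04, adjusted p = 2.77e-08). The receptor genes FZD5 (log2 fold change -0.36, SE 0.05, adjusted p = 1.78e-05) and FZD7 (log2 fold change -0.18, SE 0.03, adjusted p = 0.000887) fell. AXIN2, a widely used target of beta-catenin signals, had 28.8, 26.8 and 27.1 CPM in knockout and 27.7, 25.9 and 27.6 CPM with ZIC2, overlapping groups (log2 fold change -0.03, SE 0.06, adjusted p = 0.819). The target gene NKD1 (log2 fold change 0.29, SE 0.11, adjusted p = 0.119) and the antagonist SFRP2 (log2 fold change 0.06, SE 0.04, adjusted p = 0.397) were not called either.

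Hedgehog signals act through the receptor PTCH1, the transducer SMO and the GLI factors, to which ZIC proteins are related. Of 13 tested genes 3 rose (23.1%, against 4.99% of all tested genes) and none fell, with a median of 0.10. GAS1 (chromosome 9, 89559277 to 89562104), a co-receptor, rose from 3.26, 2.11 and 2.84 to 6.89, 5.24 and 4.802 CPM (log2 fold change 0.99, SE 0.16, adjusted p = 0.000188), and BOC, another co-receptor, from 4.66, 5.11 and 4.99 to 9.32, 7.89 and 8.73 CPM (log2 fold change 0.83, SE 0.11, adjusted p = 1.16e-05). Both groups were separate for each, although BOC shares 534 exonic bases with CFAP44 on the other strand. The inhibitor SUFU was higher by 0.29 (SE 0.08, adjusted p = 0.0207), a call lost without knockout replicate 2 (adjusted p = 0.0578), ZIC2 replicate 1 (0.12) or ZIC2 replicate 2 (0.0558) and with knockout replicate 1 thinned (0.089). The pathway's own read-outs were not called. PTCH1 had a log2 fold change of 0.10 (SE 0.06) and GLI1 one of -0.06 (SE 0.06), and GLI2 (-0.12), GLI3 (0.16) and SMO (-0.02) were not called either. Without knockout replicate 2, or with the GC and length offset, the list held 1 fall.

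NODAL and activin keep human embryonic stem cells primed by activating SMAD2 and SMAD3, and NODAL induces its own antagonists. Of the 21 tested genes of this list 8 fell (38.1%, against 3.35% of all tested genes) and 2 rose (9.52%, against 4.99%), with a median of -0.10. NODAL (chromosome 10, 72191692 to 72207704), the ligand, fell from 66.1, 78.7 and 62.4 to 51.9, 59.7 and 50.6 CPM (log2 fold change -0.35, SE 0.07, adjusted p = 0.00127). Wild type libraries held 25.2, 25.7 and 25.4 CPM, so with ZIC2 the level was lower than in knockout and still above wild type (log2 fold change 1.09 against wild type, adjusted p = 3.2e-10). GDF3 (chromosome 12, 7842378 to 7848389), a related ligand, fell from 17.4, 19.4 and 15.9 to 12.4, 9.55 and 11.9 CPM (log2 fold change -0.63, SE 0.09, adjusted p = 3.42e-05), while wild type held 12.7, 13.3 and 12.4 CPM. The co-receptor TDGF1 changed by 0.01 (SE 0.03, adjusted p = 0.937) on the log2 scale, and the receptor gene ACVR2A by 0.02 (SE 0.07, adjusted p = 0.919).

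The secreted antagonists fell too. LEFTY2 (chromosome 1, 226124298 to 226129192) fell from 23.5, 25.4 and 27.5 to 13.6, 14.4 and 17.2 CPM (log2 fold change -0.75, SE 0.09, adjusted p = 1.55e-06) and LEFTY1 from 35.6, 40.04 and 35.9 to 25.5, 29.7 and 23.1 CPM (log2 fold change -0.50, SE 0.08, adjusted p = 0.000149). These 2 genes are close copies, so unique alignment may misstate the level of each. CER1 (chromosome 9, 14719732 to 14722715), which also binds BMP and WNT ligands, fell from 24.6, 25.7 and 25.2 to 14.9, 13.7 and 18.04 CPM (log2 fold change -0.69, SE 0.08, adjusted p = 1.95e-06), and wild type stood at 6.76, 7.25 and 7.95 CPM. The SMAD partner FOXH1, which shares 385 exonic bases with KIFC2, fell from 80.8, 87.4 and 82.7 to 71.2, 73.1 and 65.1 CPM (log2 fold change -0.26, SE 0.05, adjusted p = 0.00073). In all of these the 3 libraries with ZIC2 were below the 3 knockout libraries. Of the transducers, SMAD2 (log2 fold change -0.10, SE 0.04, adjusted p = 0.16), SMAD3 (log2 fold change -0.16, SE 0.06, adjusted p = 0.109) and the inhibitor SMAD7 (log2 fold change -0.10, SE 0.06, adjusted p = 0.362) were not called. The fall of the feedback repressor SKIL (-0.18) lost its call without replicate 1 of the knockout (adjusted p = 0.0632) or of ZIC2 (0.129). The 2 rises, of the receptor gene ACVR1B and the antagonist FST, depended on single libraries, and leaving out any 1 of the 6 libraries left 1 or 0 of them. DESeq2 called neither. Knockout libraries stood above wild type for each of the falling genes in this paragraph except SKIL, and since those same libraries enter both contrasts the values are given side by side only.

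**Figure D3:**
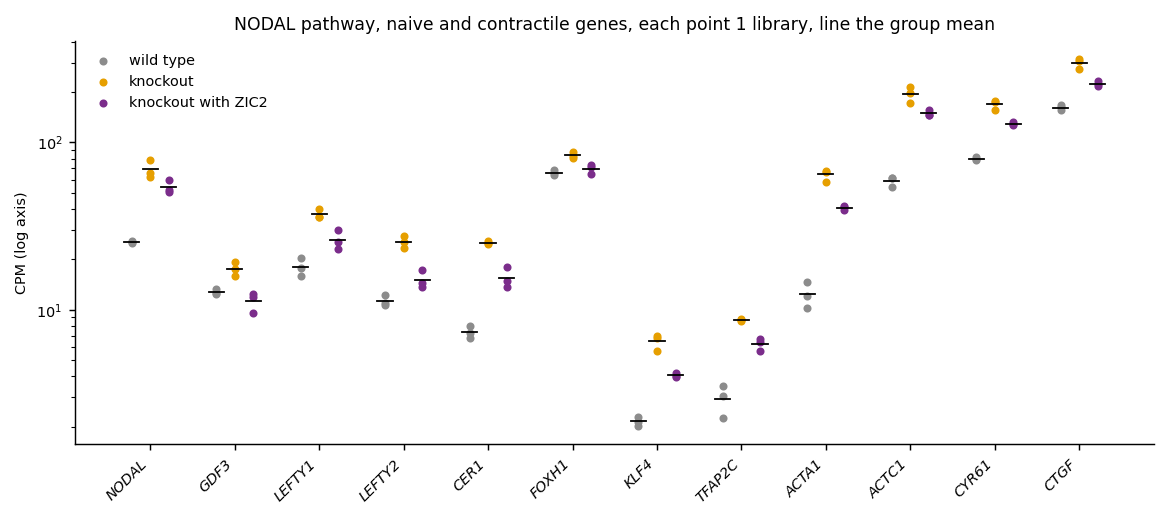
CPM on a log axis of NODAL pathway genes (NODAL to FOXH1), the naive state genes KLF4 and TFAP2C, and cytoskeletal and YAP target genes (ACTA1 to CTGF), each point 1 library and each line the mean of 3, for wild type (grey), knockout (orange) and knockout with ZIC2 (purple). For each gene shown the purple points lie below the orange ones, without overlap.

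BMP genes moved less clearly. Of 18 tested 4 fell (22.2%, against 3.35% of all tested genes) and 1 rose (5.56%, against 4.99%), with a median of -0.14. ID1 (chromosome 20, 30193086 to 30194317), a direct target of BMP signals, fell from 84.2, 97.3 and 88.3 to 71.8, 74.3 and 78.1 CPM (log2 fold change -0.26, SE 0.05, adjusted p = 0.0012), whereas ID2 (log2 fold change 0.04, SE 0.08, adjusted p = 0.854) and ID3 (log2 fold change 0.08, SE 0.06, adjusted p = 0.519) were not called. The antagonist GREM1 rose from 2.77, 3.64 and 2.66 to 5.12, 4.97 and 5.45 CPM (log2 fold change 0.80, SE 0.14, adjusted p = 0.000418). BMP4 (-0.32, adjusted p = 0.049), BMP7 (-0.46, 0.0122) and the decoy receptor BAMBI (-0.22, 0.0165) each lost their call when single libraries were left out, BMP4 without knockout replicate 2 or 3 or any ZIC2 library (adjusted p = 0.0534 to 0.239), BMP7 without ZIC2 replicate 1 or 3 (0.0859 and 0.0667) and BAMBI without knockout replicate 2 or ZIC2 replicate 1 or 2 (0.0534 to 0.0741). The falls numbered 1 without ZIC2 replicate 1 and 2 without ZIC2 replicate 2 or 3, and the rises 2 without knockout replicate 2.

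Of the core pluripotency genes, 8 of 22 tested fell (36.4%, against 3.35% of all tested genes) and none rose, with a median of -0.09. Of the factors that define the state, NANOG was called and SOX2 and POU5F1 were not. SOX2 stood at 381, 402 and 399.6 CPM in knockout and 369.5, 368 and 370.4 CPM with ZIC2 (log2 fold change -0.09, SE 0.03, adjusted p = 0.107), and POU5F1, whose deposited entry spans several contigs and is uncertain, at 77.98, 95.1 and 74.3 and 69.9, 91.6 and 77.1 CPM (log2 fold change -0.05, SE 0.08, adjusted p = 0.824). NANOG fell from 86.3, 89.8 and 81.6 to 67.4, 80.9 and 75.9 CPM (log2 fold change -0.20, SE 0.05, adjusted p = 0.017), a call lost without ZIC2 replicate 1 (adjusted p = 0.158) and in a fit of only the 6 libraries (0.0855). LIN28A differed by -0.11 (adjusted p = 0.0298) and was not called when knockout replicate 2 or any ZIC2 library was left out (adjusted p = 0.0535 to 0.105). The larger falls were in less central genes. UTF1, a chromatin-associated factor of undifferentiated cells, fell from 11.8, 13.5 and 11.1 to 8.11, 8.06 and 7.497 CPM (log2 fold change -0.61, SE 0.11, adjusted p = 0.000357), DPPA2 from 8.201, 7.27 and 9.14 to 5.62, 5.91 and 6.15 CPM (log2 fold change -0.48, SE 0.11, adjusted p = 0.0056) and GAL, the galanin neuropeptide, from 80.2, 90.05 and 79.7 to 63.2, 63.2 and 61.8 CPM (log2 fold change -0.40, SE 0.06, adjusted p = 2.44e-05). SALL4 (-0.02) and L1TD1 (-0.05) were not called. Without ZIC2 replicate 1, or in a fit of only the 6 libraries, the list held 4 falls.

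Genes of the naive state, the earlier state of pluripotency, were low in all libraries. Of 11 tested 3 fell (27.3%, against 3.35% of all tested genes) and none rose, with a median of -0.46. KLF4 (chromosome 9, 110247133 to 110252001) fell from 5.64, 6.96 and 6.81 to 4.002, 4.19 and 3.98 CPM (log2 fold change -0.64, SE 0.12, adjusted p = 0.00117), with wild type at 2.02, 2.13 and 2.29 CPM. TFAP2C fell from 8.55, 8.799 and 8.72 to 6.38, 5.63 and 6.68 CPM (log2 fold change -0.48, SE 0.11, adjusted p = 0.00819), not called without ZIC2 replicate 2 (adjusted p = 0.0573), and KLF5 by 0.66, not called without ZIC2 replicate 1 (adjusted p = 0.0939). TFCP2L1 was not called (log2 fold change -0.09, SE 0.12, adjusted p = 0.771). The 20 primed and formative genes moved both ways, 4 up (20%, against 4.99% of all tested genes) and 5 down (25%, against 3.35%). Their median was 0.02, and with the GC and length offset 5 were up and 8 down. The called genes include LEF1, ZIC5 and FZD7 described above. CRABP1 (chromosome 15, 78632666 to 78640572), a cellular retinoic acid binding protein, had the smallest adjusted p of the list and rose from 121, 138 and 132 to 229.9, 216 and 199 CPM (log2 fold change 0.73, SE 0.06, adjusted p = 3.5e-09). THY1, a surface glycoprotein of primed cells and fibroblasts, fell from 341, 362 and 328 to 304, 297 and 304 CPM (log2 fold change -0.19, SE 0.04, adjusted p = 0.0012).

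Of 11 tested genes of retinoic acid handling 5 rose (45.5%, against 4.99% of all tested genes) and none fell, with a median of 0.29. STRA6 (chromosome 15, 74471808 to 74502046), the receptor that takes up retinol, rose from 8.74, 7.85 and 8.44 to 15.8, 16.4 and 15.9 CPM (log2 fold change 0.93, SE 0.08, adjusted p = 1.17e-08). CRABP2 (chromosome 1, 156669400 to 156675608), which delivers retinoic acid to its nuclear receptors, rose from 20.1, 22.02 and 20.4 to 35.2, 38.3 and 37.6 CPM (log2 fold change 0.84, SE 0.06, adjusted p = 3.91e-09). With CRABP1 these 3 genes had separate groups, and for STRA6 the wild type libraries, at 9.59, 9.81 and 9.24 CPM, were near knockout. CYP26B1, which degrades retinoic acid, had 28 pooled counts against 51, a ratio of 2.76 (1.71 to 4.55), a call lost without knockout replicate 3 or ZIC2 replicate 1 (adjusted p = 0.07 and 0.164). Its mean was 0.296 CPM in knockout and 0.180 CPM in wild type. Those libraries could not carry CYP26B1 through the expression filter, so a fall could hardly have been called. With at least 1 CPM required in 3 libraries the list held 4 rises. The related gene CYP26A1 (log2 fold change -0.42, SE 0.14, adjusted p = 0.0634) and the receptor and target gene RARB (log2 fold change 0.49, SE 0.30, adjusted p = 0.429) were not called. Without ZIC2 replicate 1 the list held 3 rises, and without knockout replicate 1 it held 4 rises and 1 fall, as it did with the GC and length offset. DESeq2 called 3 rises.

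Neural crest and roof plate genes were mostly low, and 8 of the 16 on the list passed the filter. Of these 8, 3 rose (37.5%, against 4.99% of all tested genes) and 1 fell (12.5%, against 3.35%), with a median of 0.51. SNAI2 (chromosome 8, 49830239 to 49833999), a repressor that accompanies delamination of crest cells, rose from 1.54, 1.26 and 1.31 to 3.55, 5.08 and 5.21 CPM (log2 fold change 1.70, SE 0.18, adjusted p = 6.92e-07). SOX9 rose from 7.39, 8.96 and 8.49 to 13.2, 13.6 and 13.4 CPM (log2 fold change 0.72, SE 0.09, adjusted p = 3.84e-06). The third is WNT3A, which could appear only as a rise. The groups were separate for both transcription factors. ETS1 fell from 112, 99.6 and 112 to 80.6, 82.1 and 89.9 CPM (log2 fold change -0.36, SE 0.05, adjusted p = 2.2e-05). PAX3 (22 pooled counts against 35; log2 fold change 1.27, SE 0.43, adjusted p = 0.0785), SOX10 (log2 fold change 0.30, SE 0.20, adjusted p = 0.448), MSX2 (log2 fold change -0.23, SE 0.50, adjusted p = 0.863) and TWIST1 (log2 fold change -0.62, SE 0.37, adjusted p = 0.389) were not called. The 5 neural crest markers summed to 11.4 to 12.2 CPM in knockout and 19.3 to 21.8 CPM with ZIC2, and that rise came from SNAI2 and SOX9, while TFAP2B had no count in 5 of the 6 libraries. Their part in the other results was not tested.

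Neuronal genes did not move as one group. Of 18 tested 5 rose (27.8%, against 4.99% of all tested genes) and 3 fell (16.7%, against 3.35%), with a median of 0.02. STMN2 (chromosome 8, 80523049 to 80578410), a regulator of microtubules in growing axons, rose from 0.629, 1.001 and 1.12 to 2.53, 4.14 and 3.16 CPM (log2 fold change 1.93, SE 0.26, adjusted p = 1.31e-05), MAP2 from 17.6, 18.5 and 21.9 to 31, 24.9 and 29.6 CPM (log2 fold change 0.58, SE 0.09, adjusted p = 0.000132) and the adhesion gene NCAM1, which overlaps antisense genes, from 9.92, 7.96 and 9.89 to 12.9, 12.4 and 13.6 CPM (log2 fold change 0.46, SE 0.09, adjusted p = 0.00206). MAP2 stood at 39.2, 49.3 and 47.1 CPM in wild type, above both other groups. GAP43, an axonal growth protein, fell from 32.5, 32.8 and 31.4 to 25.2, 26.1 and 27.8 CPM (log2 fold change -0.29, SE 0.06, adjusted p = 0.00314). TUBB3 (log2 fold change -0.06, SE 0.04, adjusted p = 0.47) and DCX (log2 fold change 0.00, SE 0.13, adjusted p = 0.993) were not called. The 5 neuron markers summed to 279.7 to 301.1 CPM in knockout and 280.9 to 304.8 CPM with ZIC2, overlapping ranges. Most of each sum came from TUBB3, and of the 5 markers 2 (STMN2 and MAP2) were called higher and 0 lower. Of the 14 tested neuroectoderm genes 1 rose and 1 fell (7.14% each, against 4.99% and 3.35% of all tested genes). The rise was ZNF521 (log2 fold change 0.57, SE 0.09, adjusted p = 0.000219). The fall was CDH2 by 0.16, not called without knockout replicate 3, ZIC2 replicate 1 or ZIC2 replicate 2 (adjusted p = 0.0554 to 0.093). PAX6 (log2 fold change -0.27, SE 0.18, adjusted p = 0.45), SIX3 (log2 fold change -0.26, SE 0.76, adjusted p = 0.901) and LHX2 (log2 fold change 0.70, SE 0.38, adjusted p = 0.331) were low and not called.

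Few genes of other lineages were detected. Of 7 tested mesoderm genes 2 fell (28.6%, against 3.35% of all tested genes) and none rose. They were KDR (-0.24), not called without ZIC2 replicate 2 (adjusted p = 0.0533), and FGF8 (-0.52), not called without ZIC2 replicate 1 (0.0797). EOMES, of the primitive streak, had 49 pooled counts against 66 (log2 fold change 1.04, SE 0.33, adjusted p = 0.0502), and MIXL1 (log2 fold change -0.45, SE 0.24, adjusted p = 0.317), TBX6 (log2 fold change 0.23, SE 0.31, adjusted p = 0.768), WNT3 (log2 fold change 0.25, SE 0.12, adjusted p = 0.264) and PDGFRA (log2 fold change 0.02, SE 0.12, adjusted p = 0.955) were not called. Of 5 tested endoderm genes CER1 and FOXA3 fell (40%, against 3.35% of all tested genes). FOXA3 went from 26.9, 27.5 and 27.5 to 21.8, 21.4 and 23.1 CPM (log2 fold change -0.30, SE 0.06, adjusted p = 0.00128). FOXA2, CXCR4 and AFP were not called. Of 5 tested trophoblast and amnion genes 2 rose (40%, against 4.99% of all tested genes) and none fell. VTCN1, an immune checkpoint protein also of amnion, had 10 pooled counts against 38, a ratio of 5.77 (2.82 to 12.98). Its mean was 0.128 CPM in knockout and 0.391 CPM in wild type, against 0.690 CPM with ZIC2. Neither knockout nor wild type libraries could carry VTCN1 through the expression filter, so a fall could hardly have been called. The keratin gene KRT7 was higher by 0.49, not called without knockout replicate 1 or ZIC2 replicate 1 (adjusted p = 0.12 and 0.0815), so that the list then held 1 rise. GATA2, GATA3 and GABRP were not called.

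**Figure D4:**
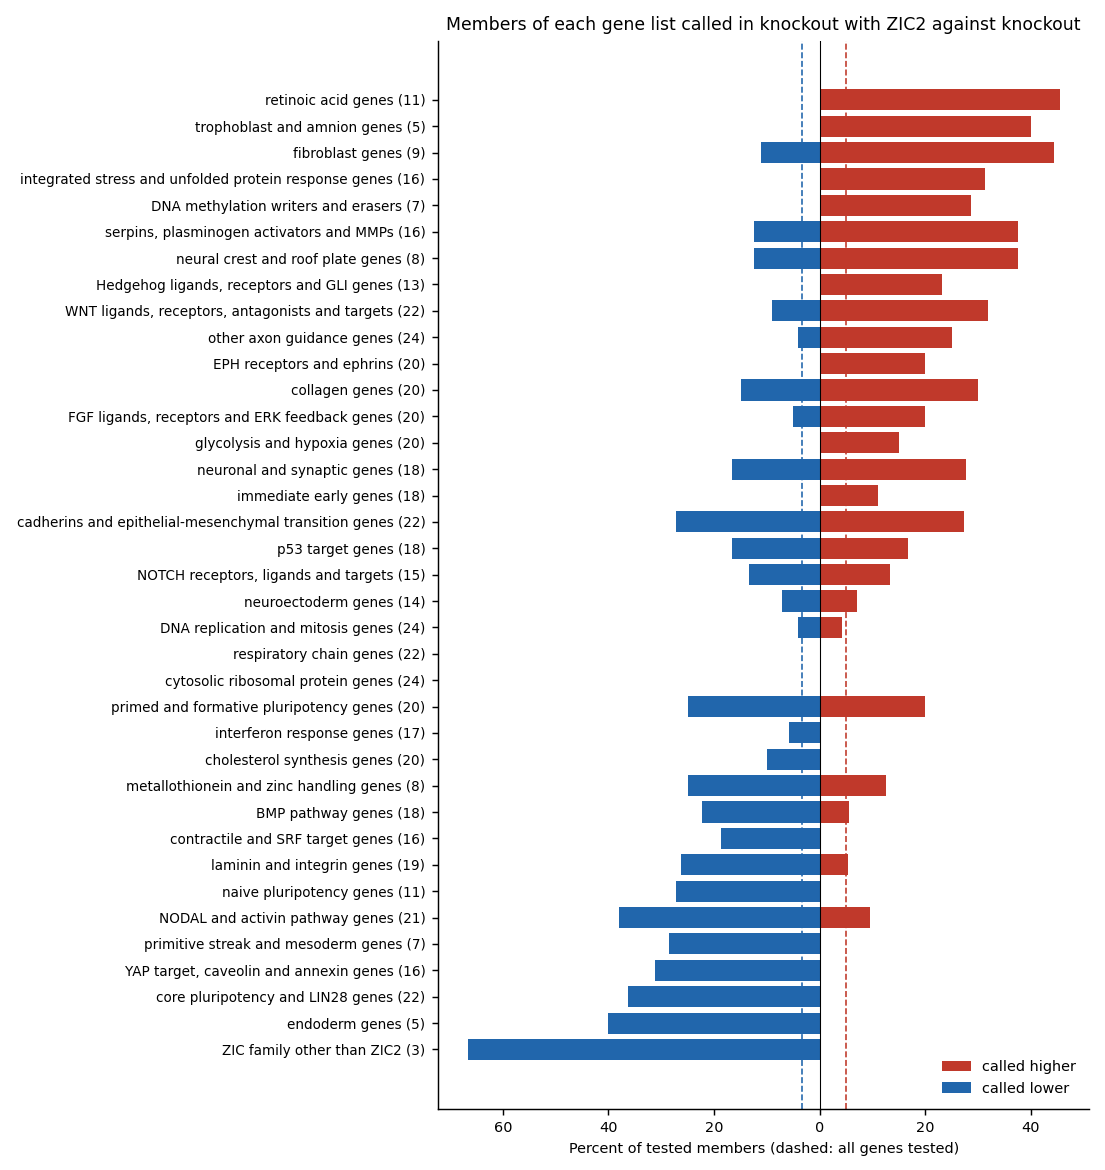
Percent of the tested members of each of the 37 gene lists called higher (red, to the right) and lower (blue, to the left) in knockout with ZIC2 against knockout, with the number tested in parentheses. Dashed lines mark the percent over all tested genes, 4.99 higher and 3.35 lower; retinoic acid, EPH, Hedgehog and stress genes extend to the right only, and core pluripotency, naive and YAP target genes to the left only.

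Matrix and adhesion genes moved in both directions. Of 9 tested fibroblast genes 4 rose (44.4%, against 4.99% of all tested genes) and 1 fell (11.1%, against 3.35%), with a median of 0.25. COL1A1 (chromosome 17, 48261457 to 48279000), the main chain of type I collagen, rose from 103, 116 and 112 to 235, 201 and 196 CPM (log2 fold change 0.94, SE 0.06, adjusted p = 4.49e-11), and wild type held 71.1, 66.3 and 70.3 CPM. Its partner chain COL1A2 rose less, from 98.3, 96.7 and 90.8 to 121, 112 and 109 CPM (log2 fold change 0.25, SE 0.05, adjusted p = 0.00105), and COL6A3 from 5.59, 4.58 and 5.46 to 9.52, 8.11 and 8.61 CPM (log2 fold change 0.73, SE 0.12, adjusted p = 0.000311). The 5 fibroblast markers summed to 201.7 to 212.5 CPM in knockout and 304.2 to 355.4 CPM with ZIC2, almost all from these type I chains, since COL3A1, LUM and DCN were at or below 0.221 CPM in each library. Of 20 collagen genes 6 rose (30%, against 4.99% of all tested genes) and 3 fell (15%, against 3.35%), with a median of 0.06. COL9A1, of cartilage, rose from 14.7, 14.02 and 16.7 to 24.4, 23.1 and 24.8 CPM (log2 fold change 0.67, SE 0.08, adjusted p = 1.97e-06) and the transmembrane collagen gene COL13A1 from 4.799, 3.74 and 4.06 to 8.66, 9.38 and 7.204 CPM (log2 fold change 0.97, SE 0.14, adjusted p = 6e-05). No collagen gene was called lower without knockout replicate 1, and 1 without ZIC2 replicate 3 or by DESeq2.

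Of 19 laminin and integrin genes LAMB3 alone rose (5.26%, against 4.99% of all tested genes) and 5 fell (26.3%, against 3.35%), with a median of -0.02. The integrin genes ITGB1 (log2 fold change -0.18, SE 0.03, adjusted p = 0.000692) and ITGB5 (log2 fold change -0.19, SE 0.03, adjusted p = 0.000328) fell. The falls numbered 3 without knockout replicate 1 or 3 and 2 without ZIC2 replicate 1. LAMA1, LAMB1, LAMC1 and ITGA6, subunits of the matrix contact of pluripotent cells, had log2 fold changes from -0.01 to 0.05 and were not called.

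Of 16 serpin, plasminogen activator and metalloprotease genes 6 rose (37.5%, against 4.99% of all tested genes) and 2 fell (12.5%, against 3.35%), with a median of 0.03. PLAT (chromosome 8, 42032236 to 42065242), tissue plasminogen activator, rose from 12.1, 10.5 and 11.5 to 22.3, 21.7 and 18.8 CPM (log2 fold change 0.87, SE 0.08, adjusted p = 2.77e-08), and PLAUR, the receptor of the other activator, from 5.29, 6.11 and 4.62 to 10.8, 10.3 and 9.72 CPM (log2 fold change 0.95, SE 0.11, adjusted p = 2.07e-06). TIMP3, an inhibitor of metalloproteases, rose from 11.7, 10.6 and 12.3 to 19.05, 17.1 and 15.99 CPM (log2 fold change 0.59, SE 0.08, adjusted p = 1.59e-05). PLAU was not called (log2 fold change -0.04, SE 0.07, adjusted p = 0.845), and the falls are SERPINB9 and MMP9 above.

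Cadherin and epithelial-mesenchymal transition genes split evenly, 6 of 22 up and 6 down (27.3% each, against 4.99% and 3.35% of all tested genes), with a median of -0.05. CDH5 (chromosome 16, 66400510 to 66438689), the cadherin of endothelial junctions, had 44 pooled counts against 134, a ratio of 4.62 (3.26 to 6.65). CDH1, the epithelial cadherin of pluripotent cells, rose from 287, 262 and 273 to 347, 327 and 325 CPM (log2 fold change 0.28, SE 0.04, adjusted p = 1.93e-05), and EPCAM fell from 266, 287 and 265 to 238, 244 and 229 CPM (log2 fold change -0.20, SE 0.04, adjusted p = 0.00144). Of the transcription factors in the list SNAI2, SNAI1 and GRHL2 were called higher, by 1.70, 0.43 and 0.22, and TWIST1, ZEB1 and ZEB2 were not called. SNAI1 lost its call without knockout replicate 3 or ZIC2 replicate 2 or 3 (adjusted p = 0.0522 to 0.112), and GRHL2 without ZIC2 replicate 1 (0.0997). The falls of VIM (-0.20) and FN1 (-0.31) were in overlapping groups. VIM was not called without replicate 2 or 3 of either group (adjusted p = 0.0856 to 0.177), nor FN1 without knockout replicate 1 or ZIC2 replicate 2 (0.0763 and 0.0813). The falls in this list numbered 2 without knockout replicate 3 and 1 without ZIC2 replicate 2.

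Some contractile genes and targets of YAP fell. Of 16 tested contractile and SRF target genes 3 fell (18.75%, against 3.35% of all tested genes) and none rose, with a median of -0.03. Without knockout replicate 1 there were 6 falls and 1 rise, and with the GC and length offset 5 and 1. ACTA1 (chromosome 1, 229566993 to 229569843), skeletal muscle actin, fell from 58.2, 67.9 and 66.9 to 39.5, 41.1 and 41.4 CPM (log2 fold change -0.65, SE 0.07, adjusted p = 6.79e-07), and ACTC1, cardiac actin, from 171, 215 and 196 to 157, 146 and 147 CPM (log2 fold change -0.37, SE 0.06, adjusted p = 0.000296). Both stayed far above wild type, which held 12.1, 10.2 and 14.6 CPM of ACTA1 and 61.5, 54.2 and 61.2 CPM of ACTC1, and the 2 genes are similar enough in their coding part that unique alignment may lower each. TAGLN (log2 fold change -0.10, SE 0.07, adjusted p = 0.5) and MYL9 (log2 fold change -0.16, SE 0.06, adjusted p = 0.104) were not called. Of 16 YAP target, caveolin and annexin genes 5 fell (31.25%, against 3.35% of all tested genes) and none rose, with a median of -0.14. However, 1 rose without knockout replicate 1 or 2 and 9 fell with the GC and length offset. CTGF (chromosome 6, 132269317 to 132272518), a matricellular protein and standard YAP target, fell from 276, 315 and 306 to 216, 232 and 222 CPM (log2 fold change -0.42, SE 0.04, adjusted p = 6.55e-07), and CYR61 (chromosome 1, 86046444 to 86049648), also a standard target, from 156, 175 and 177 to 132, 129.5 and 128 CPM (log2 fold change -0.38, SE 0.04, adjusted p = 1.95e-06). The ZIC2 libraries were all below the knockout libraries and all above wild type, at 167, 156 and 162 and 81.4, 79.6 and 78.8 CPM. ANXA1 fell from 17.3, 23.03 and 22.99 to 16.2, 13.3 and 14.2 CPM (log2 fold change -0.50, SE 0.11, adjusted p = 0.00337), and AMOTL2, a further YAP target, was not called (log2 fold change -0.00, SE 0.05, adjusted p = 0.984).

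FGF signals through ERK sustain primed pluripotency and induce their own inhibitors. Of 20 tested genes 4 rose (20%, against 4.99% of all tested genes) and 1 fell (5%, against 3.35%), with a median of 0.01. With the GC and length offset 4 rose and 5 fell. The receptor gene FGFR3 rose from 12.7, 12.2 and 13.99 to 19.6, 20.2 and 19.97 CPM (log2 fold change 0.63, SE 0.07, adjusted p = 1.86e-06). The feedback phosphatase genes DUSP6, from 124, 125 and 119 to 141, 146 and 144 CPM (log2 fold change 0.23, SE 0.04, adjusted p = 0.000258), and DUSP5, from 42.7, 41.4 and 39.4 to 51.01, 51.3 and 48.8 CPM (log2 fold change 0.29, SE 0.05, adjusted p = 0.00048), rose, as did SPRED2 (log2 fold change 0.42, SE 0.08, adjusted p = 0.000836). All had separate groups. FGF2 (log2 fold change -0.12, SE 0.04, adjusted p = 0.0593), FGFR1 (log2 fold change 0.08, SE 0.04, adjusted p = 0.214), SPRY4 (log2 fold change 0.05, SE 0.04, adjusted p = 0.54), ETV4 (log2 fold change 0.03, SE 0.05, adjusted p = 0.769), ETV5 (log2 fold change -0.15, SE 0.06, adjusted p = 0.129) and DUSP4 (log2 fold change -0.18, SE 0.07, adjusted p = 0.115) were not called. The fall, of FGF8, was lost without ZIC2 replicate 1, and without knockout replicate 2 or 3 or ZIC2 replicate 3 there were 2. Of 18 immediate early genes 2 rose (11.1%, against 4.99% of all tested genes) and none fell, and with the GC and length offset 3 rose and 4 fell. EGR1 (chromosome 5, 137801181 to 137805004) rose from 7.43, 8.06 and 6.34 to 18.6, 16.2 and 14.6 CPM (log2 fold change 1.18, SE 0.10, adjusted p = 1.31e-08) and KLF10 from 30.1, 26.2 and 26.5 to 43.5, 36.5 and 35.6 CPM (log2 fold change 0.47, SE 0.07, adjusted p = 4.76e-05). EGR2 (log2 fold change 0.75, SE 0.24, adjusted p = 0.0504), FOS (log2 fold change 0.26, SE 0.09, adjusted p = 0.0923) and JUN (log2 fold change -0.19, SE 0.06, adjusted p = 0.0636) were not called, and without knockout replicate 2 the list held 4 rises and 1 fall; 1 fall was also called without knockout replicate 1 or ZIC2 replicate 1.

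NOTCH genes gave 2 rises and 2 falls of 15 tested (13.3% each, against 4.99% and 3.35% of all tested genes), with a median of -0.06. NOTCH3 fell from 301, 257 and 303 to 245, 231 and 250.3 CPM (log2 fold change -0.25, SE 0.05, adjusted p = 0.00205). MFNG, HES1 and JAG1 were called with all libraries (log2 fold changes 0.82, 0.25 and -0.17) and each lost its call without ZIC2 replicate 2 (adjusted p = 0.0819, 0.128 and 0.226) and in other settings. The list then held no rise and 1 fall, and also no rise without knockout replicate 1 or ZIC2 replicate 1, 1 rise and 1 fall without knockout replicate 3, and 1 fall without ZIC2 replicate 3. NOTCH1 (log2 fold change 0.09, SE 0.07, adjusted p = 0.552), DLL1 (log2 fold change 0.37, SE 0.19, adjusted p = 0.27) and HES6 (log2 fold change -0.01, SE 0.06, adjusted p = 0.963) were not called.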

How the data were processed

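Poly(A) RNA-seq libraries of H1 cells were compared. The deposited values are raw whole-number counts for each gene. The submitters' processing notes name STAR, featureCounts, DESeq2 and hg19 but no version or setting, and the table also holds the gene coordinates and a gene length, per the file headers. The counts come from uniquely aligned reads, per the file headers, which lowers genes with near-identical copies. The library kit named in the labels' protocols is not one that marks strand, so overlapping genes on opposite strands cannot be told apart.

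Of 27130 genes, 3461 had no count and 15437 passed filterByExpr. The quasi-likelihood test of edgeR 4.0.16 (R 4.3.3, limma 3.58.1) with TMM factors and group as the only term was fitted to all 12 libraries (3 each of wild type, knockout, knockout with ZIC2 and wild type with ZNF263 overexpression), with 8 residual degrees of freedom and a common biological coefficient of variation of 0.0397. Adjusted p-values (Benjamini-Hochberg) cover all tested genes, and each SE was derived from the test's F. Ratios of pooled counts have exact 95% binomial intervals. Scripts were tested on simulated data. Alternatives were RLE and upper quartile factors, DESeq2 1.42.0, other filters, a fit of 6 libraries, a replicate block, an offset for GC content and length, minimum folds, leaving out libraries and a thinned library.

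The members and the 37 gene lists were chosen with earlier results of these data known. Genes were named by rule: ZNF263, ZIC2, POU5F1, SOX2 and NANOG, the 15 called genes that rose most and the 15 that fell most, with at least 5 CPM in the higher group, separate libraries and no symbol of a clone, locus, small RNA or Y-linked gene, up to 4 called members with the smallest adjusted p of each list, all members of lists of 8 or fewer, and uncalled members that complete a pathway. Called genes outside it (ADGRF5, GH1, PTPN7, NODAL, FOXH1, SKIL, ACVR1B, FST, BMP4, LIN28A, PLXNA2, SEMA6D, SEMA3A, FZD5, FZD7, VIM, FN1, SNAI1, GRHL2, CDKN1A) were chosen after their values were seen. Some list members are not reported here by name. Replicate pairs differed by more than counting error (chi-square per gene 2.90 to 9.82). Promoter sequences are from RefSeq on GRCh38.p14.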

Additional observations from a re-analysis of the deposited data

How the results depend on the processing

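No named gene that was called in the main comparison or in an alternative run changed direction between the 2. Changes of sign in genes called in neither were not counted. No gene called in the main comparison was called in the opposite direction. The rises numbered 536 to 835 and the falls 306 to 641 when single libraries were left out, the fewest of both without ZIC2 replicate 1. The falls numbered 289 in a fit of only the 6 libraries, which has fewer samples to estimate the spread, and 1169 with the offset for GC content and length, for which the cause was not tested. A test against a minimum fold of 1.2 left 278 rises and 29 falls, and one of 1.5 left 111 rises and 0 falls, since it asks for larger changes. The other scalings, DESeq2, filters and the thinned library gave 542 to 893 rises and 385 to 705 falls. The log2 fold change of ZIC2 was 3.64 to 3.76 over all settings. The median log2 fold change of all genes, -0.0011 in the main comparison, was -0.009 with RLE factors, 0.008 with upper quartile factors and -0.016 with the offset.

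With the replicate block 749 genes were higher and 495 lower, and of the genes named in the text JAG1 and ACVR1B lost their call. The deviations of same-numbered libraries correlated at 0.0092, 0.112 and 0.044, so the numbers were not taken to pair the samples; 4 of 6 libraries correlated best with their own number. GC content was known for 97.0% of tested genes, and its Spearman correlation with the log2 fold change was 0.012, a description across genes that are not independent. Genes at a few counts per library, such as WNT3A, CYP26B1 and SIX3, are limited by counting error.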

Other observations

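In the list of integrated stress and unfolded protein response genes, 5 of the 16 tested rose (31.25%, against 4.99% of all tested genes). None fell, and the median log2 fold change was 0.09. DDIT4, an inhibitor of mTOR signalling, rose from 25.2, 26.8 and 28.4 to 41.2, 40.6 and 35.8 CPM (log2 fold change 0.56, SE 0.07, adjusted p = 2.66e-06). The asparagine synthetase gene ASNS rose from 124, 136 and 135 to 178, 169 and 163 CPM (log2 fold change 0.37, SE 0.05, adjusted p = 8.8e-06), and the cystine transporter gene SLC7A11, which overlaps an antisense gene, from 84.1, 78.6 and 80.6 to 99.5, 92.3 and 95.8 CPM (log2 fold change 0.24, SE 0.04, adjusted p = 0.000624). ATF4 (log2 fold change -0.04, SE 0.04, adjusted p = 0.659) and the chaperone gene HSPA5 (log2 fold change -0.02, SE 0.03, adjusted p = 0.761) were not called. Of 18 p53 targets 3 rose and 3 fell (16.7% each, against 4.99% and 3.35% of all tested genes). The stress cytokine gene GDF15 rose from 4.1, 6.11 and 5.596 to 12.01, 10.3 and 9.49 CPM (log2 fold change 1.08, SE 0.13, adjusted p = 3.72e-06) and the death receptor gene TNFRSF10B from 58.3, 59.6 and 61.04 to 74.2, 73.8 and 74.2 CPM (log2 fold change 0.31, SE 0.04, adjusted p = 1.93e-05). The kinase gene PLK2 fell from 45.03, 46.6 and 48.7 to 35.4, 34.3 and 33.1 CPM (log2 fold change -0.44, SE 0.05, adjusted p = 3.8e-06), and MDM2, the inhibitor of p53, from 98.1, 110.2 and 103 to 87.5, 89.1 and 90.7 CPM (log2 fold change -0.22, SE 0.05, adjusted p = 0.00314). CDKN1A was higher by 0.43, not called without ZIC2 replicate 1 (adjusted p = 0.0538).

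Metabolic and growth genes mostly stayed below the threshold. Of 20 glycolysis and hypoxia genes 3 rose (15%, against 4.99% of all tested genes) and none fell. Among the rises were NDRG1, from 4.43, 4.74 and 4.29 to 7.09, 7.01 and 6.79 CPM (log2 fold change 0.64, SE 0.14, adjusted p = 0.00333), and BNIP3 (log2 fold change 0.32, SE 0.06, adjusted p = 0.00181). VEGFA was the third, not called without knockout replicate 1 or ZIC2 replicate 1 or 3 (adjusted p = 0.0653 to 0.113), and 2 genes fell without ZIC2 replicate 1 and 1 without knockout replicate 2. With the GC and length offset 3 fell. Of 24 DNA replication and mitosis genes CCND1 rose from 119.9, 114 and 107 to 149.7, 148 and 139 CPM (log2 fold change 0.35, SE 0.04, adjusted p = 5.82e-06), while MKI67 was not called (log2 fold change 0.01, SE 0.11, adjusted p = 0.967). CCND2 was lower by 0.14, not called without replicate 1 or 3 of either group (adjusted p = 0.0563 to 0.116), and 3 genes of the list rose without knockout replicate 1 and 2 without ZIC2 replicate 1. With the offset 3 rose. The 1 rise and 1 fall called with all libraries were 4.17% each, near the 4.99% and 3.35% of all tested genes. None of 24 ribosomal protein genes and none of 22 respiratory chain genes was called in the edgeR test of all libraries or by DESeq2 (0 and 3 at an unadjusted p under 0.05 in edgeR), with log2 fold changes of -0.11 to 0.03 and -0.10 to 0.02. Without knockout replicate 1 edgeR called 1 and 2 of them lower, with the GC and length offset 4 and 1, and with no filter on low counts 2 and 0. Of 20 cholesterol synthesis genes 2 were lower (10%, against 3.35% of all tested genes), INSIG1 among them by 0.15. INSIG1 lost its call without knockout replicate 3 or ZIC2 replicate 1 or 3 (adjusted p = 0.0606 to 0.131), and the list held no fall when any of these 3 libraries was left out and 1 without knockout replicate 1 or ZIC2 replicate 2. With the offset 4 fell and 1 rose. Of 17 interferon response genes 1 fell (5.88%, against 3.35% of all tested genes). It was IFITM1, lower by 0.21 and not called without knockout replicate 1 or 2 or ZIC2 replicate 1 or 3 (adjusted p = 0.0599 to 0.242), and the list held 0 to 2 falls across these and 3 with the offset. Of 7 DNA methylation genes 2 rose (28.6%, against 4.99% of all tested genes). UHRF1 rose from 74.3, 70.3 and 75.2 to 92, 82.8 and 87.3 CPM (log2 fold change 0.25, SE 0.05, adjusted p = 0.000529). TET2 was higher by 0.59, not called without ZIC2 replicate 1 (adjusted p = 0.126). DNMT1, DNMT3A, DNMT3B, TET1 and TET3 were not called, although 3 genes of the list fell without knockout replicate 2 or with the offset. Of 8 zinc handling genes 1 rose (12.5%, against 4.99% of all tested genes) and 2 fell (25%, against 3.35%). The rise was the zinc exporter gene SLC30A3 (log2 fold change 0.64, SE 0.10, adjusted p = 6.27e-05). MT1X and SLC39A10 were lower by 0.41 and 0.19, the first not called without replicate 3 of either group or ZIC2 replicate 1 (adjusted p = 0.067 to 0.0791), the second without replicate 1 of either group (0.105 and 0.158).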
